A study of Mus musculus with 7 samples.

Results

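The miR-17-92 and miR-106b-25 clusters are a pair of related miRNA genes, each of which yields several mature miRNAs from a single transcript. Their members were taken by name from the deposited counts of Ago2-bound miRNA in mouse plasma, and 10 of the 640 counted miRNAs belonged to them. From miR-17-92 these were miR-17-5p, miR-18a-5p, miR-19a-3p, miR-20a-5p, miR-19b-3p and miR-92a-3p, and from miR-106b-25 they were miR-106b-5p, miR-106b-3p, miR-93-5p and miR-25-3p. Argonaute 2 (Ago2) is the protein that carries a miRNA to its targets, and it was immunoprecipitated from plasma so that the small RNA bound to it could be sequenced.

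Plasma came from adult male mice of the strain C57BL/6JOlaHsd, given in the labels as c57. Status epilepticus (SE) was induced with kainic acid injected into the amygdala and was cut short with midazolam or lorazepam, and control mice received PBS by the same route. The 7 libraries comprised 3 control pools (4, 8 and 24 h) and 4 SE pools (the same times and 2 weeks), and each was made from plasma pooled from 10 mice. Each condition is a single library, so differences between conditions cannot be set against replicates. The control of the 2-week time-point was not analysed here, so the 2-week SE library was compared with control 24 h, which the comparison at 24 h also uses.

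Libraries held between 2043220 and 5405357 counts, and miR-486b-5p alone took between 62.5% and 76.1% of them. Low counts gathered around a typical value, which was 102 in control 4 h but only 33.1 to 60.2 elsewhere. Control 4 h also had the fewest counted miRNAs, 232 against 314 to 399 elsewhere, and it stands apart for both reasons. Calls at 4 h are therefore also set against the other controls. Among red cell miRNAs, miR-451a had between 3 and 81 counts per library, and miR-144-3p was at 0 in control 4 h and at 599 to 1634 counts elsewhere. The liver miRNA miR-122-5p had 59 counts in SE 4 h, 55 in SE 2 weeks and at most 1 elsewhere.

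As background, the miR-17-92 cluster promotes proliferation and survival, is switched on by MYC and is often amplified in lymphoma, and mice that lack it die around birth. The miR-106b-25 cluster lies inside the gene of the replication factor Mcm7 and is transcribed with it. A miRNA finds its targets mainly through its seed, bases 2 to 8 counted from the 5′ end, so members that share a seed share many predicted targets. The miR-17 seed is known for repression of cell cycle inhibitors such as Cdkn1a.

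All 10 members were matched to RefSeq mature sequences (GRCm38.p6). The 8 members that reached 50 CPM (counts scaled for library size and TMM factor, as described below) in at least 1 library are shown with miR-92b-3p, a relative from another gene, because the results below turn on which of them share a seed. Capitals mark the seed.
miR-92a-3p: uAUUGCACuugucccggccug
miR-25-3p: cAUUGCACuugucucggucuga
miR-92b-3p: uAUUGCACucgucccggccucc
miR-19a-3p: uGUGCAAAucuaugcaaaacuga
miR-19b-3p: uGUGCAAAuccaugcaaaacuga
miR-17-5p: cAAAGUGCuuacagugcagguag
miR-93-5p: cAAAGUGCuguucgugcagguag
miR-106b-5p: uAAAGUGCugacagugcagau
miR-106b-3p: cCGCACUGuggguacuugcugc
The leading member of each cluster, miR-92a-3p and miR-25-3p, carries the seed AUUGCAC. Both miR-19 members share another seed, and miR-17-5p, miR-93-5p and miR-106b-5p share the seed AAAGUGC with miR-20a-5p. The miR-106b hairpin yields 2 members, and its 3p arm has a seed that no other member has.

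Some members are too alike for their counts to be separated with certainty. The authors allowed up to 2 mismatched nucleotides in alignment. With positions counted from the 5′ end, miR-19a-3p and miR-19b-3p differ by the single substitution U11C, and miR-17-5p differs from miR-106a-5p, of the miR-106a-363 cluster on chromosome X, by U10A. miR-17-5p and miR-20a-5p differ at 2 positions, and so do miR-18a-5p and miR-18b-5p. miR-92a-3p and miR-92b-3p also differ at 2 positions when aligned from the 5′ end, and by 1 base in length. Counts of these miRNAs are uncertain to the extent that reads were shared among them.

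The mature sequences of miR-17-92 lie on the plus strand within 813 bp of chromosome 14, from miR-17-5p at chr14:115043684-115043706 to miR-92a-3p at chr14:115044476-115044496 (GRCm38.p6). All 6 fall in an exon of the long non-coding RNA Mir17hg. Those of miR-106b-25 lie on the minus strand within 476 bp of chromosome 5, from miR-25-3p at chr5:138165332-138165353 to miR-106b-5p at chr5:138165787-138165807, inside Mcm7. Both miR-106b arms were intronic in the 2 overlapping Mcm7 transcripts, and miR-25-3p and miR-93-5p were exonic in 1 of 3. Identical copies of miR-92a-3p and miR-19b-3p are also encoded on chromosome X, at chrX:52741854-52741874 and chrX:52741991-52742013, and the counts do not separate the copies.

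The clusters together took between 1.39% (SE 4 h) and 2.25% (control 24 h) of a library's counts. miR-92a-3p, which is abundant in blood cells, led them in all 7 libraries and ranked between the 5th and the 14th most abundant miRNA. It took 1.29%, 1.15% and 1.51% of counts in control 4 h, 8 h and 24 h, and 0.805%, 0.956%, 0.779% and 1.5% in SE 4 h, 8 h and 24 h and at 2 weeks. The 3 acute SE libraries were therefore all below the 3 controls as a share of counts, as were those of 13% of 208 miRNAs (3.37% were all above), and SE 2 weeks was between control 4 h and control 24 h. miR-25-3p came next among the members and ranked between the 15th and the 21st. Mature miRNAs are nearly equal in length (21 to 23 nucleotides here), so their counts were not scaled by length.

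**Figure D1:**
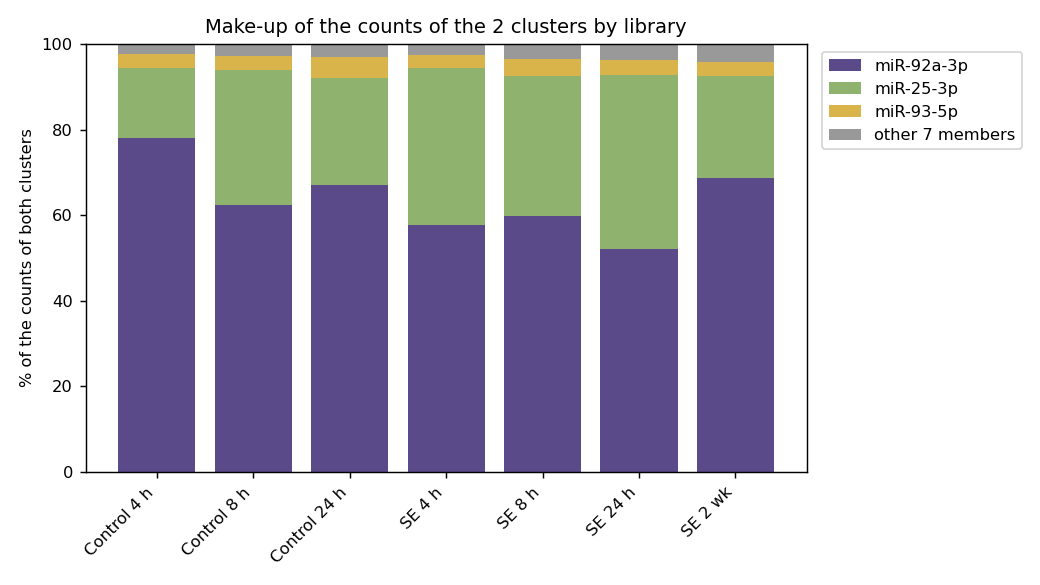
Share (%) of the summed counts of the 10 members taken by miR-92a-3p, miR-25-3p, miR-93-5p and the other 7 members together, 1 bar per library. miR-92a-3p is the largest part of every bar, and miR-25-3p takes its largest share in SE 24 h.

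To compare libraries, counts were scaled to CPM with TMM factors, which are set so that most miRNAs do not shift between libraries. On this scale the sum of miR-17-92 was 15337, 9669 and 13358 CPM in control 4 h, 8 h and 24 h, and 10340, 8618, 10646 and 12785 CPM in SE 4 h, 8 h and 24 h and at 2 weeks. The sum of miR-106b-25 was 3990, 5482 and 6099 CPM in the controls, and 7338, 5290, 9174 and 5224 CPM in the SE libraries. The sums of both clusters overlapped between SE and control. With TMM factors, SE 4 h and SE 24 h were above all controls for miR-106b-25. As a share of counts they were not, with 0.578% and 0.692%. The shares in control 4 h, 8 h and 24 h were 0.340%, 0.670% and 0.705%. For both clusters added together, the log2 ratio of SE to its control stayed between -0.13 and 0.03 in the 4 comparisons, and the changes of their leading members had opposite signs at 4 h and 24 h.

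**Figure D2:**
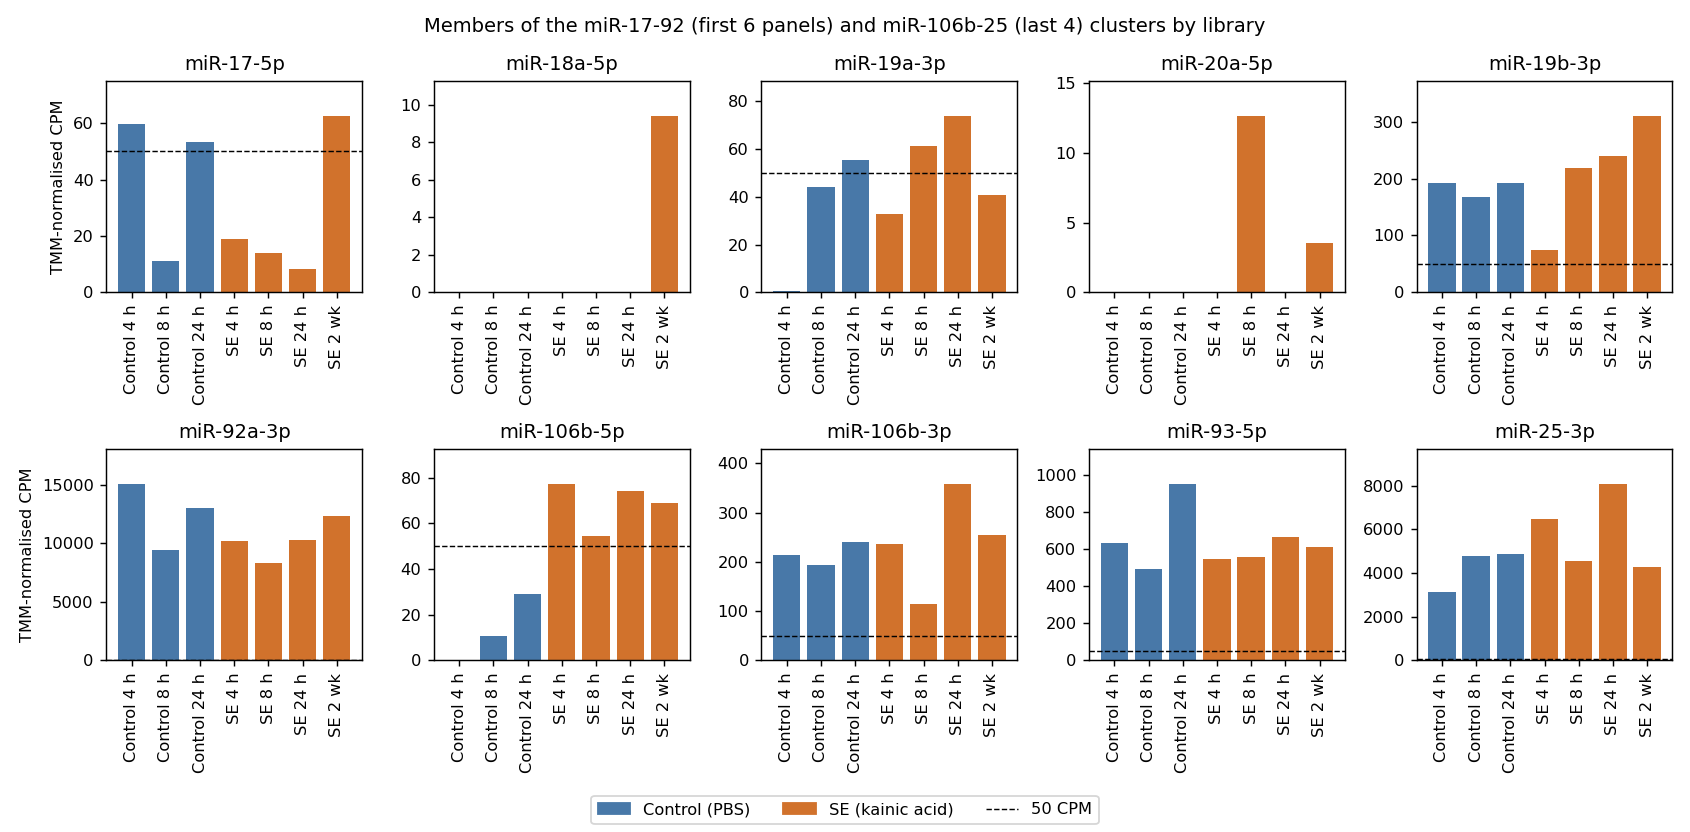
TMM-normalised CPM of each member, 1 bar per library, with a separate linear axis for each panel and controls left of SE; the dashed line is 50 CPM where it falls on the axis. Bars of miR-106b-5p are higher in all 4 SE libraries than in the 3 controls, and bars of the other members overlap between the groups or are mostly at 0.

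Each SE library was tested against its control with the exact test of edgeR. The biological coefficient of variation (BCV), the spread assumed between replicates, was set to 0.1. A miRNA was tested with at least 50 CPM in either library and called where the unadjusted p was below 0.05 and the fold at least 1.5. A call therefore concerns the reads of a pair of libraries and not the conditions, since the BCV is assumed and not measured. Between control libraries, where no treatment differs, the same test called 59.3% of 177 miRNAs at 4 h against 8 h, 69.6% of 181 at 4 h against 24 h and 45.4% of 141 at 8 h against 24 h. Time-point differs between these controls.

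The 4 comparisons called 67.2% of 189 miRNAs at 4 h (32.3% higher and 34.9% lower), 50% of 154 at 8 h (35.1% and 14.9%), 44.7% of 141 at 24 h (24.8% and 19.9%) and 31.7% of 145 at 2 weeks (18.6% and 13.1%). Of the members, 4 of 7 tested were called at 4 h, 2 of 7 at 8 h, 3 of 8 at 24 h and 3 of 8 at 2 weeks. These shares were below those of all miRNAs in the acute comparisons and slightly above at 2 weeks. The members' median log2 fold change was -0.21, 0.19 and 0.36 at 4 h, 8 h and 24 h, and -0.00 at 2 weeks, against -0.06, 0.23, 0.04 and 0.01 over all miRNAs tested. miR-18a-5p and miR-20a-5p were never tested, miR-19a-3p was not tested at 4 h, and miR-17-5p was not tested at 8 h.

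**Figure D3:**
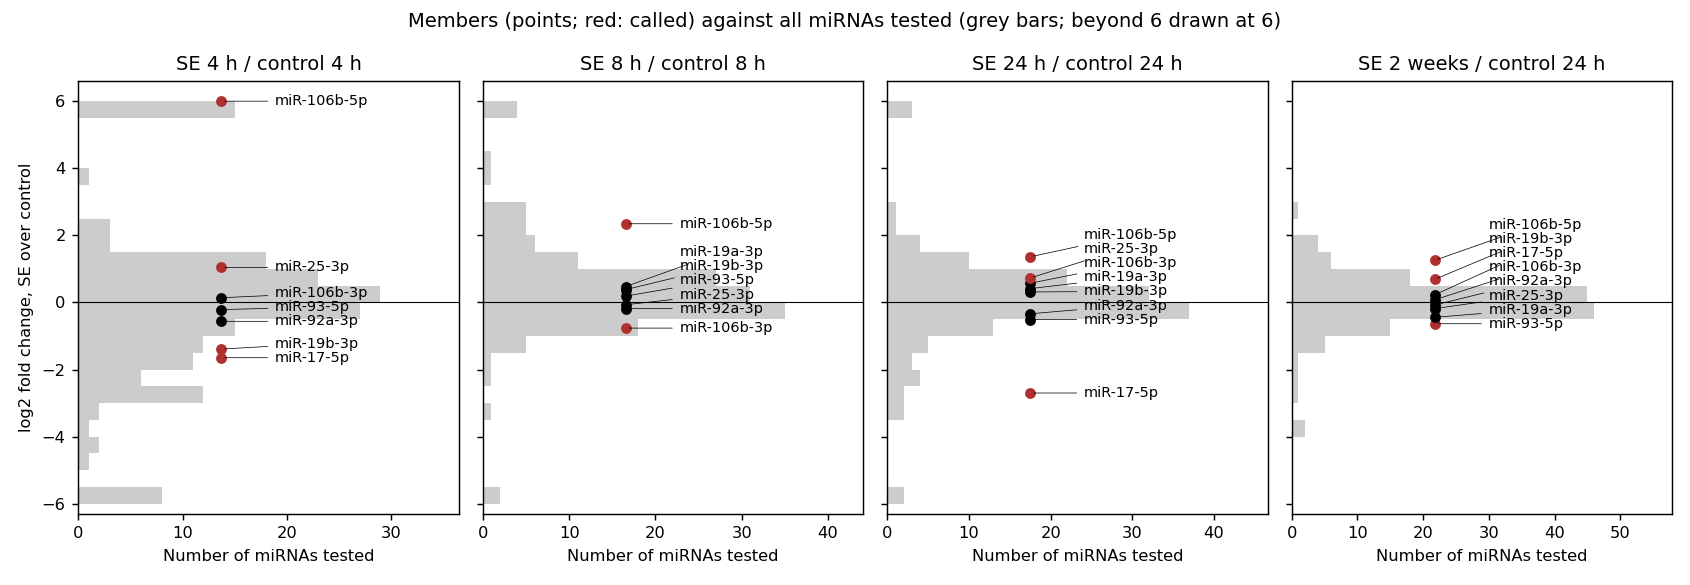
log2 fold change of SE over control for the members tested (points, red where called) beside the number of all miRNAs tested at each fold change (grey bars), 1 panel per comparison; fits beyond 6 either way are drawn at the limit, as for miR-106b-5p at 4 h, where the control had 0 counts. Most members lie within the bulk of the grey bars in every panel.

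miR-106b-5p was the member whose levels separated the groups. It had 0, 46 and 114 counts in control 4 h, 8 h and 24 h, and 329, 198, 208 and 213 counts in SE 4 h, 8 h and 24 h and at 2 weeks. As TMM CPM these were 0, 10.7 and 28.9 in the controls and 77.3, 54.4, 74.2 and 69.0 in SE. All 4 SE libraries were above all 3 controls, also when scaled by library size or by DESeq2's size factors, and without control 4 h. Among 208 miRNAs with at least 50 CPM in some library, 5.77% had all 4 SE libraries above all controls and 3.85% had them below.

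In SE 4 h, miR-106b-5p had 329 counts against 0 in control 4 h. With a floor of 3 counts set for control 4 h, the fold was 44.9. Low counts in control 4 h gathered around 102, so this fold is not a lower limit. Without control 4 h the difference was smaller, with SE 4 h above control 8 h by 2.85 and above control 24 h by 1.42 on the log2 scale, and both were called. The ratio to control was 5.10 at 8 h (95% counting interval 3.68 to 7.19), then 2.57 at 24 h (2.03 to 3.26) and 2.39 for 2 weeks (1.89 to 3.03), with log2 fold changes of 2.35, 1.36 and 1.25. It was called higher at each of these 4 time-points, and it passed the 50 CPM minimum through the SE libraries alone. With the BCV set to 0.4 it was still called at 4 h and 8 h but not at 24 h or 2 weeks. Divided by the typical low count of each library, its counts came to 0, 0.765 and 2.07 in the controls and 8.75, 3.82, 4.60 and 6.43 in SE. Counting intervals cover counting error only, and reads copied from the same molecule are not independent.

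The other arm of the same hairpin, miR-106b-3p, did not follow at every time-point. It had 215, 194 and 241 CPM in the controls and 237, 114, 358 and 254 CPM in SE 4 h, 8 h and 24 h and at 2 weeks, and the groups overlapped. It was called lower at 8 h (log2 fold change -0.76) and was not called at the other time-points (0.14, 0.57 and 0.08 for 4 h, 24 h and 2 weeks). At 24 h its fold was 1.49, just under the minimum of 1.5, and SE 24 h and SE 2 weeks were above all controls. The 24 h change was called higher with DESeq2's size factors (0.63), and against control 4 h (0.74) or control 8 h (0.89). With library size as the scale it was -0.044. At 8 h the arms were therefore called in opposite directions.

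Within a library the ratio of arms does not depend on scaling. There were 18.2 reads of miR-106b-3p per read of miR-106b-5p in control 8 h (95% counting interval 13.5 to 25) and 8.33 in control 24 h (6.86 to 10.2), and control 4 h had 374 reads of the 3p arm and 0 of the 5p arm. In SE the ratio was 3.06, 2.10 and 4.83 at 4 h, 8 h and 24 h, and 3.68 at 2 weeks. The highest SE ratio, with an interval of 4.15 to 5.63, was below the lowest control ratio. The 5p arm had only 0, 46 and 114 counts in control 4 h, 8 h and 24 h. These were 0, 0.765 and 2.07 times the typical low count of their libraries. The control ratios and shares are uncertain to that extent, which the counting intervals do not cover. As a share of both arms, the 3p arm made up 100%, 94.8% and 89.3% in the controls and 75.4%, 67.7%, 82.8% and 78.6% in SE. Of 29 hairpins with at least 50 CPM in some library for each arm, all SE shares were below all controls for 2 (6.9%), miR-106b and miR-152, and above for another 2 (6.9%). The miR-106b pair passed this minimum only through the SE libraries, as its 5p arm had at most 28.9 CPM in a control. For this pair the minimum itself favours a lower 3p share in SE.

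**Figure D4:**
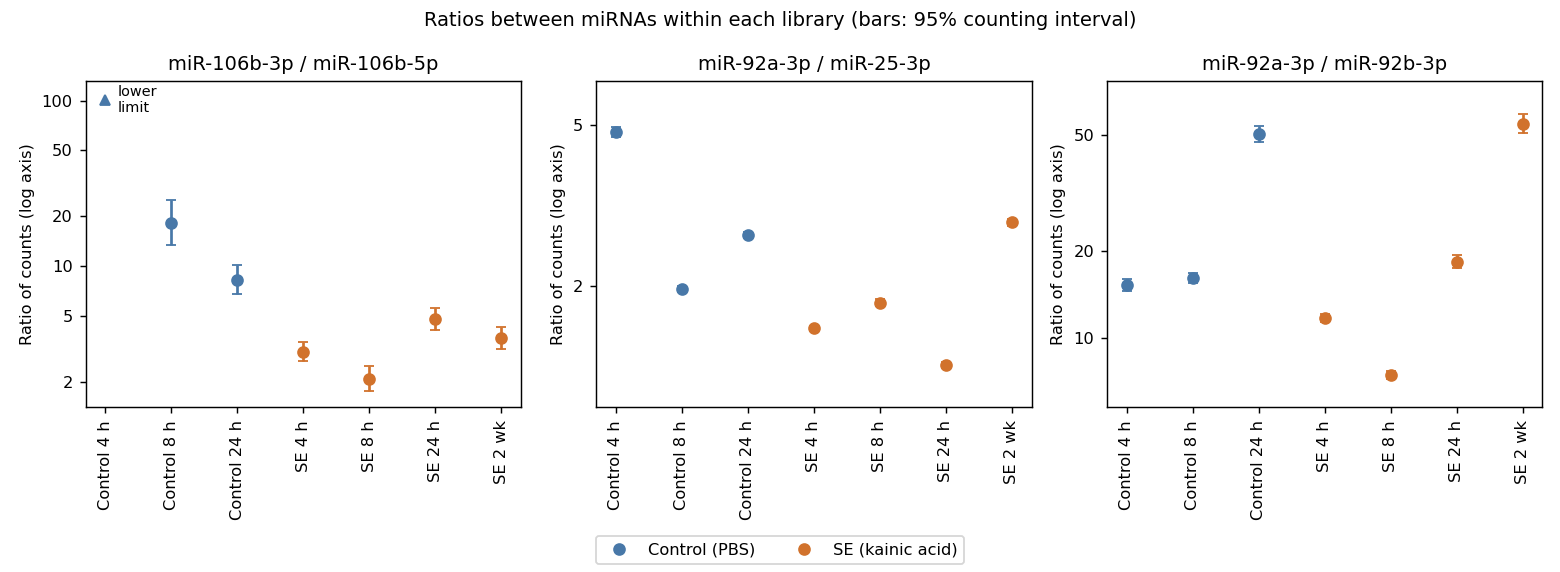
Ratio of counts between pairs of miRNAs within each library on log axes, with 95% counting intervals. The triangle, marked lower limit, is the lower end of this interval where the denominator had 0 counts (control 4 h). It covers counting error only. Low counts in control 4 h gathered around 102, so the true ratio may be lower. For miR-106b the SE ratios lie below the control ratios, for miR-92a-3p over miR-25-3p this holds for the 3 acute SE libraries, and for miR-92a-3p over miR-92b-3p SE 24 h and SE 2 weeks lie among the controls or above them.

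miR-25-3p, the most abundant member of miR-106b-25, had 3143, 4786 and 4877 CPM in the controls of 4 h, 8 h and 24 h. In SE it had 6479, 4561, 8074 and 4288 CPM at 4 h, 8 h and 24 h and at 2 weeks. SE 4 h and SE 24 h were above the controls, and SE 8 h and SE 2 weeks were within their range. Scaled by library size, SE 4 h (5103 CPM) was below control 8 h (5848 CPM) and control 24 h (5639 CPM). SE 24 h (6089 CPM) stayed above the controls. miR-25-3p was called higher at 4 h (log2 fold change 1.04) and at 24 h (0.73). The call at 4 h rested on control 4 h, since SE 4 h was above control 8 h by 0.44 and above control 24 h by 0.41 and was called against neither. The call at 24 h was lost with scaling by library size, where the log2 fold change was 0.11. Beside the rise at 4 h, the summed CPM of 6 platelet and leukocyte miRNAs was higher in SE by 0.74 on the log2 scale. At 24 h this sum differed by -0.06. For the same sum, SE 4 h (9865 CPM) was above control 8 h (7383 CPM) but below control 24 h (12448 CPM). Beside the rise at 24 h, the red cell miRNAs, nearly all miR-486b-5p, were higher by 0.80, and at 4 h they differed by -0.06. As a share of counts, miR-486b-5p made up 76.1% of SE 24 h and 67.0% of control 24 h. The rest of the red cell list was mixed at 24 h, with miR-144-5p called higher (0.80), miR-144-3p at -0.32 and not called, and miR-451a at 45 counts against 81. At 4 h miR-144-3p had 1407 counts against 0, miR-144-5p 779 against 1 and miR-451a 47 against 3, where control 4 h was again the library near 0. The part of these miRNAs in the result was not tested. In pooled plasma, the number of cells that released a miRNA and the amount released per cell cannot be told apart.

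miR-92a-3p had 15084, 9446 and 13057 CPM in control 4 h, 8 h and 24 h, and 10214, 8312, 10325 and 12358 CPM in SE 4 h, 8 h and 24 h and at 2 weeks. SE 8 h was below all controls and the other SE libraries were within their range. Its log2 fold change was -0.56, -0.18 and -0.34 at 4 h, 8 h and 24 h, and -0.08 at 2 weeks, and none was called. It was called lower at 4 h with library size (-0.68) and with DESeq2's size factors (-0.70), and at 24 h with library size (-0.96).

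The ratio of miR-92a-3p to miR-25-3p, which share a seed, compares the leading members without any scaling. It was 4.80, 1.97 and 2.68 in control 4 h, 8 h and 24 h, and 1.58, 1.82 and 1.28 in SE 4 h, 8 h and 24 h, then 2.88 in SE 2 weeks. The 3 acute SE libraries were all below the controls, with or without control 4 h, and SE 2 weeks was within the control range. The nearest values, 1.82 in SE 8 h (95% counting interval 1.79 to 1.86) and 1.97 in control 8 h (1.94 to 2.01), were apart by less than the controls were from each other. On the log2 scale the difference of SE from control was -1.61, -0.11 and -1.07 at 4 h, 8 h and 24 h, and 0.11 at 2 weeks. This ratio was picked out after its values were seen and was not tested. How often other pairs of miRNAs separate the libraries in this way was not counted.

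The summed level of the AUUGCAC seed, miR-92a-3p and miR-25-3p together, moved little. Its log2 ratio of SE to control was -0.13, -0.14 and 0.04 at 4 h, 8 h and 24 h, and -0.11 at 2 weeks. miR-92b-3p, which has the same seed and its own gene on chromosome 3, had 990.5, 586 and 260 CPM in the controls and 870, 1110, 562 and 226 CPM in SE 4 h, 8 h and 24 h and at 2 weeks. It was called higher at 8 h (log2 fold change 0.92) and 24 h (1.11) and was not called at 4 h (-0.19) or 2 weeks (-0.20). The ratio of miR-92a-3p to miR-92b-3p accordingly ran from 7.49 in SE 8 h to 54.7 in SE 2 weeks and from 15.2 to 50.3 among controls.

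Of the miR-19 members, miR-19b-3p had 193, 167 and 193 CPM in the controls of 4 h, 8 h and 24 h. In SE it had 73.5, 218, 239 and 310 CPM at 4 h, 8 h and 24 h and at 2 weeks. The 3 controls were close together, SE 4 h was below them and the 3 later SE libraries were above them. The change was called lower at 4 h (log2 fold change -1.39) and higher at 2 weeks (0.69), and was not called at 8 h (0.38) or 24 h (0.31). Against control 8 h and control 24 h the value at 4 h was -1.19 and -1.39, both called. With library size as the scale, the value at 24 h was -0.30.

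miR-19a-3p, which differs from miR-19b-3p by 1 base, had 1, 191 and 219 counts in control 4 h, 8 h and 24 h, and 140, 224, 207 and 126 counts in SE. Control 4 h was far below the other 6 libraries. At 4 h the ratio of SE to control was 57.3, with a counting interval of 10.1 to 2279, and it was not tested because neither library reached 50 CPM. This ratio rests on the 1 count of control 4 h, and the direction turns without that library, since SE 4 h (32.9 CPM) was below control 8 h (44.3 CPM) and control 24 h (55.5 CPM). At the later 3 time-points the log2 fold changes were 0.47, 0.41 and -0.44, and none was called. Reads of miR-19b-3p per read of miR-19a-3p were between 2.24 and 3.78 in 5 libraries and 7.60 in SE 2 weeks, while control 4 h had 336 reads of miR-19b-3p and 1 of miR-19a-3p.

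Members with the AAAGUGC seed differed in direction. miR-17-5p had 59.7, 11.1 and 53.5 CPM in control 4 h, 8 h and 24 h, and 19.0, 14, 8.20 and 62.5 CPM in SE 4 h, 8 h and 24 h and at 2 weeks. The controls themselves spanned 5.36-fold, and control 8 h was lower than SE 4 h and SE 8 h. It was called lower at 4 h (log2 fold change -1.65) and 24 h (-2.70) and was not called at 2 weeks (0.23). Against control 24 h the value at 4 h was -1.49. Against control 8 h the value at 4 h was 0.77 and that at 24 h was -0.44, so both depended on which control was used. Behind these values were between 23 and 211 counts per library.

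miR-93-5p, the most abundant member with this seed, had 632, 492 and 953 CPM in the controls and 545, 560, 668 and 614 CPM in SE 4 h, 8 h and 24 h and at 2 weeks. With TMM factors all 4 SE libraries were within the control range. Scaled by library size, SE 4 h (430 CPM) and SE 24 h (504 CPM) were below the lowest control (539 CPM, control 4 h). With TMM, miR-93-5p was called lower at 2 weeks (log2 fold change -0.63) and was not called at 4 h (-0.21), 8 h (0.19) or 24 h (-0.51). With library size it was called lower at 24 h (-1.13) and was not called at 2 weeks (-0.56). Control 24 h was the highest of the 7 libraries, and against control 8 h the value at 2 weeks was 0.32. From control 8 h to control 24 h the difference was itself called, at -0.95 for 8 h over 24 h.

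For this seed as a whole the log2 ratio of SE to control was -0.11, 0.32 and -0.46 at 4 h, 8 h and 24 h, and -0.47 at 2 weeks. miR-93-5p made up most of the sum. miR-25-3p and miR-93-5p come from the same transcript, and their ratio was 4.97, 9.74 and 5.12 in the controls and 11.9, 8.14, 12.1 and 6.99 in SE, with SE 4 h and SE 24 h above all controls.

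miR-18a-5p and miR-20a-5p were at 0 counts in all 3 controls. miR-18a-5p had 29 counts in SE 2 weeks and 0 in the other SE libraries. miR-20a-5p had 46 counts in SE 8 h, 11 in SE 2 weeks and 0 in SE 4 h and SE 24 h. Each of these counts was below the typical low count of its library. A floor of 3 counts would put a 0 in the controls at up to 0.850 to 1.47 CPM. Low counts gathered around 102, 60.2 and 55.1 in control 4 h, 8 h and 24 h, so this floor is not an upper limit. The zeros therefore do not show that either miRNA was lower in the controls.

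Set against the spread of the 3 controls, 2 of the 8 members at 50 CPM were above and 1 was below in SE 4 h, against 33.7% and 15.9% of 208 miRNAs. In SE 8 h these were 3 and 2 members (27.9% and 19.7%), in SE 24 h 5 and 1 (25.5% and 18.8%), and in SE 2 weeks 4 and 0 (23.6% and 18.3%). In SE 24 h the 5 were miR-19a-3p, miR-19b-3p, miR-106b-5p, miR-106b-3p and miR-25-3p. Scaling by library size lowered the median of all miRNAs at 24 h by 0.67 on the log2 scale, and 2 members were then above the controls in SE 24 h and 3 below, in place of 5 and 1. The log2 fold changes of miR-19a-3p, miR-19b-3p and miR-106b-3p at 24 h were then below 0.

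The 3 acute SE libraries were also compared with the 3 controls by edgeR's quasi-likelihood test, which takes the spread from the libraries themselves. The 3 libraries a side differ in time-point and do not replicate a single condition. The common BCV was 0.587, and 0.424 without control 4 h. After Benjamini-Hochberg adjustment 0 of 137 miRNAs passed, and 17 (12.4%) had an unadjusted p under 0.05, none of them a member. DESeq2 called 4 of 137, and no member. By edgeR's quasi-likelihood test the smallest adjusted p of a member was 0.518, for miR-25-3p (log2 fold change 0.58 ± 0.29). Values after ± are approximate standard errors, worked back from each fold change and the F statistic of the test. miR-106b-5p had a log2 fold change of 2.36 ± 1.48 (adjusted p = 0.621 by edgeR) and was higher in 3 of 3 SE libraries. Without control 4 h its log2 fold change was 1.79 ± 0.70 (adjusted p = 0.366 by edgeR), and it passed the minimum of 50 CPM only through the SE libraries. miR-92a-3p had -0.38 ± 0.25 (adjusted p = 0.648 by edgeR) and was lower than its control in 3 of 3.

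Other products of these genes were scarce. Of the 8 opposite arms of member hairpins, 3 were counted and none reached 50 TMM CPM in any library. Of 10 arms of miR-106a-363, the related cluster on chromosome X, 5 were counted and none reached 50 TMM CPM, although miR-363-3p had 50.4 CPM in control 24 h when scaled by library size alone. miR-363-3p had 0, 31 and 172 counts in the controls and 170, 50, 44 and 116 in SE. miR-32-5p, which has the AUUGCAC seed, had at most 79 counts in a library.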

How the data were processed

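In the Chimera software (version not given in the sources used here), the authors removed adapters, kept reads of suitable length, matched these to miRBase with BLASTn at up to 2 mismatches, and deposited raw counts of reads per mature miRNA, which are the counts used here. The submitters' processing notes name edgeR and limma. Members and lists were chosen with earlier results of these data known.

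Counts were read in Python 3.11.15 (numpy 2.4.6, pandas 2.3.3, scipy 1.17.1, matplotlib 3.10.9) and scaled by TMM over 7 libraries in edgeR 4.0.16 (R 4.3.3, limma 3.58.1). The exact test of edgeR (BCV 0.1, following the study's methods, prior count 0.125) served for pairs of libraries, and its quasi-likelihood test for 3 SE against 3 control libraries, at 50 CPM in at least 3 libraries. Both were also run on simulated data, and the outcome is not given here. Shares have 95% Wilson intervals and ratios exact ones. Total counts set a floor of 3 counts at 0.555 to 1.47 CPM. Typical low counts are the mode of a kernel density of ln counts from 6 to 300 (bandwidth 0.15). The text names all members, and other miRNAs by lists of related arms, shared seeds and blood or liver markers. RefSeq sequences matched 551 of 640 miRNAs. Alternatives were other scaling, BCV 0.4, no filter, prior count 2, other controls, a time-point block, DESeq2 1.42.0 and leaving out each library.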

Additional observations from a re-analysis of the deposited data

Results flagged for a closer look

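miR-18a-5p was flagged because it had 29 counts in SE 2 weeks, where all 3 controls had 0. miR-20a-5p was flagged for 46 counts in SE 8 h and 11 counts in SE 2 weeks, again with 0 in all 3 controls. All 3 counts lie below the value around which low counts gather in their libraries, which was 51.9 counts in SE 8 h and 33.1 in SE 2 weeks. The related miR-18b-5p, which differs from miR-18a-5p at 2 positions, had 28 counts in SE 2 weeks and 0 in the other 6 libraries.

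miR-19b-3p was flagged because its change had opposite signs at 2 time-points. Its log2 fold change was -1.39 at 4 h and 0.69 at 2 weeks, both called. The difference between the time-points was not tested, and there was 1 library per condition.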

How the results depend on the processing

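With the BCV set to 0.4, 1 member was called in each acute comparison (of 7, 7 and 8 tested) and 0 of 8 at 2 weeks. The assumed spread is wider in this setting. Over all miRNAs tested, it called 20 higher and 38 lower of 189 at 4 h, and 19 and 4 of 154 at 8 h. At 24 h it called 8 and 11 of 141, and at 2 weeks 3 and 5 of 145. With any count in either library enough for testing, 5 of 10 members were called at 2 weeks. With DESeq2's size factors, 5 of 8 members were outside the control range in SE 4 h. The share over all miRNAs is not given for either setting, so neither count can be read as a result about the members. Scaling by library size turned the direction at 24 h of miR-19a-3p (-0.20), miR-19b-3p (-0.30) and miR-106b-3p (-0.044), and with it 14.8% of calls at 24 h over all miRNAs were higher, against 55.6% with TMM. DESeq2's size factors moved the median of all miRNAs by -0.16 at 4 h and -0.15 at 8 h, and library size moved it by -0.12 at 8 h.

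Using another control turned 14 log2 fold changes. Against control 4 h these were miR-93-5p at 8 h (-0.17) and 24 h (0.079), miR-25-3p at 8 h (0.54) and 2 weeks (0.45) and miR-19a-3p at 2 weeks (6.03, against 1 count). Against control 8 h they were, at 4 h, miR-17-5p (0.77), miR-92a-3p (0.11) and miR-93-5p (0.15), at 24 h miR-92a-3p (0.13) and miR-93-5p (0.44), and at 2 weeks miR-92a-3p (0.39) and miR-93-5p (0.32). Against control 24 h they were miR-106b-3p at 4 h (-0.026) and miR-93-5p at 8 h (-0.77). A prior count of 2 changed no direction or call in 30 values. The cause of these changes was not tested.

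In the comparison of 3 SE with 3 control libraries 0 members passed under every alternative, leaving out each library included (0 to 0). With time-point as a block, pairing SE and control, 0 members passed. Without SE 4 h, SE 8 h or SE 24 h, only 6, 5 and 5 members were tested. miR-106b-5p was not among them, since it passed the 50 CPM minimum only through the 3 SE libraries. Leaving out an SE library therefore could not test it. The labels give no replicate numbers. The smallest adjusted p of a member (edgeR) ran from 0.362 to 0.859 over the alternatives. Depth limits miR-17-5p, miR-18a-5p, miR-19a-3p, miR-20a-5p and miR-106b-5p most, whose counts lie within a few times the typical low count of their libraries.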

Other observations

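Of 97 other miRNAs with at least 50 CPM in all 7 libraries, those whose log2 TMM CPM was most like the sum of miR-17-92 over the 7 libraries were let-7d-5p (Pearson r 0.93), miR-5119 (0.91) and miR-103-3p (0.91). Those most like the sum of miR-106b-25 were miR-421-3p (0.91), miR-126a-5p (0.89) and miR-101b-3p (0.83). These are the highest of 97 values over 7 points that share scaling factors, and are given as a description.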
